A study of Caenorhabditis elegans with 2 samples.

Results

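PHP-3 is a posterior Hox protein of the nematode Caenorhabditis elegans, one of the homeodomain transcription factors that give cells their identity along the body axis. Its binding was measured by ChIP-seq, the sequencing of DNA recovered with a protein from crosslinked chromatin, and the 256 peaks described here are those whose summit lay in the promoter of a protein-coding gene on the X chromosome. A promoter window began 1000 bp before a gene's annotated 5′ end, the outermost where there were several, and ended 200 bp after it; summits within 300 bp of a tRNA gene were left out, which removed 18 of 274. The 256 were 30.5% of the 839 peaks on X and 7.19% of the 3559 peaks of the larger list made from both replicates. Within that list position alone chose the peaks, and signal and sequence were not used. Every peak had already passed the list's limit on reproducibility.

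All samples were of 1 group. Whole L4 larvae of strain RW12213, which carries the allele st12213[php-3::TY1::EGFP::3xFLAG] on chromosome III, were taken at 48 hours, after starvation as L1 larvae had synchronised them. The tag had been inserted by CRISPR, so every worm in the study carried it, and chromatin was precipitated with an antibody against GFP. There were 2 biological replicates, no untagged or other group is analysed here, and the labels do not record the sex of the worms. Because whole animals were used, the cells in which each site was bound are not known. Read numbers are unknown, and intervals on shares cover only the counting of peaks or genes.

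Posterior Hox proteins of the Abdominal-B type, such as PHP-3 and its neighbour NOB-1, pattern the tail of the embryo and larva. They prefer AT-rich sites of the form TTTATGA or TTTATGG, and they often bind with PBC and Meis cofactors. In hermaphrodites, which have a pair of X chromosomes, a dosage compensation complex is recruited to X and lowers its transcription. GATA factors are a separate family, and ELT-2, itself encoded on X, is the main one of the intestine.

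The sequences around some of the strongest summits give examples of what these promoters hold. Each reaches 50 bp to either side of a summit, read 5′ to 3′ on the strand of the gene it is named for, from the WBcel235 assembly (ce11 coordinates), and none overlaps an annotated exon or UTR. Capitals mark a GATA match (TGATAA or AGATAA) or a posterior Hox match in a wide form (TTTAC or TTTAT, then G or T, then A or G), on either strand. The first 5 are among the 6 strongest such windows, and ceh-60, a Hox cofactor gene, was added after its values were seen. The window left out of those 6, that of nspc-17 (signal 453), held neither match and is shown further below. Among all X promoter peaks, 40.6% of windows held neither a GATA match nor a wide posterior Hox match.
K06G5.1 (chrX:14214668-14214768, plus strand): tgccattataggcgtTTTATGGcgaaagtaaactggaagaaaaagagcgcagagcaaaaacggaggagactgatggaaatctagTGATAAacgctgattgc
K08H2.10 (chrX:13257686-13257786, plus strand): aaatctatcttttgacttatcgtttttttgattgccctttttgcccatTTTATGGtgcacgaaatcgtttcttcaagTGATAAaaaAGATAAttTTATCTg
amt-4 (chrX:4565080-4565180, plus strand): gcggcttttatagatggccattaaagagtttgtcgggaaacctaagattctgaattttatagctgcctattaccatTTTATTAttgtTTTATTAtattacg
abhd-3.2 (chrX:978387-978487, minus strand): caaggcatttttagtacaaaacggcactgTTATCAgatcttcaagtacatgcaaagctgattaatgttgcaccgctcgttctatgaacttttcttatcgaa
ets-4 (chrX:6518681-6518781, plus strand): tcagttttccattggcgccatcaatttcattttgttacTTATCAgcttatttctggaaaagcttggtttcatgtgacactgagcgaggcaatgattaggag
ceh-60 (chrX:6530768-6530868, minus strand): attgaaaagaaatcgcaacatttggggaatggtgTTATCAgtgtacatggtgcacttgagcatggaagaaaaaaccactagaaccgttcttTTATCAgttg

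K06G5.1 and K08H2.10, the 2 strongest of all, each held 1 posterior Hox match in its strict form, TTTATGG. Downstream of that match, K06G5.1 held 1 GATA match and K08H2.10 held 3. The window of amt-4 held 2 wide Hox matches and no GATA match, whereas those of abhd-3.2, ets-4 and ceh-60 held GATA matches and no Hox match. The next 4 windows are the strongest others with a posterior Hox match that overlap no annotated exon or UTR. Of these, 2 also held a GATA match.
F18G5.6 (chrX:9264849-9264949, minus strand): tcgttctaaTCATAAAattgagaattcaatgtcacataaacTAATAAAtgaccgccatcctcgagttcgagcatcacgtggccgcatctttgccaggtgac
gcy-11 (chrX:17056152-17056252, minus strand): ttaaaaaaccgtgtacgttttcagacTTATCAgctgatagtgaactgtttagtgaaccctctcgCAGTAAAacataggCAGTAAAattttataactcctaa
B0272.4 (chrX:9428153-9428253, plus strand): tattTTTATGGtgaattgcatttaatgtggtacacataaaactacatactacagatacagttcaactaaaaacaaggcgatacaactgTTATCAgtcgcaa
C52B11.5 (chrX:1272672-1272772, plus strand): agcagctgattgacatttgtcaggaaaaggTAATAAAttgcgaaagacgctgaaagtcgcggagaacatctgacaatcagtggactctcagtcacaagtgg

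The first comparison was between chromosomes. On X, 258 of 2731 protein-coding genes had a promoter summit (9.45%, exact binomial 95% interval 8.38 to 10.6), against 1280 of 17242 on the autosomes (7.42%, 7.04 to 7.83). The log2 odds ratio was 0.38 ± 0.10 (SE; two-sided Fisher's exact test, p = 0.000323). By single chromosome the shares were 8.56% on III, 8.41% on II, 7.13% on IV, 6.78% on I and 6.71% on V. X was the highest of the 6, but its interval overlapped those of II and III. Neighbouring peaks and genes are not independent, so this p-value and the others below are too small.

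**Figure D1:**
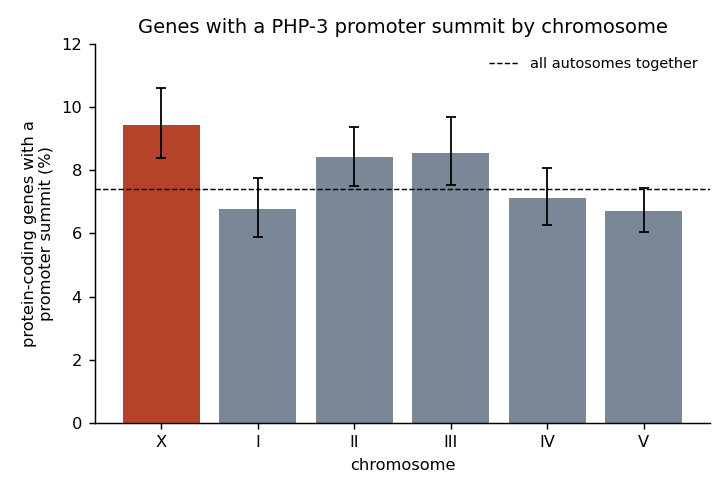
Share of protein-coding genes with a PHP-3 summit in the promoter window, X first and then the autosomes, with exact binomial 95% intervals as error bars and the autosomes together (7.42%) as a dashed line. X stood at 9.45%, and the autosomes between 6.71% on V and 8.56% on III.

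Along X, marked genes, those with a promoter summit, were more frequent in the centre. The central of 3 equal stretches of the chromosome had 109 of 976 genes marked (11.2%), against 149 of 1755 in the outer ones (8.49%), where the left held 76 of 871 (8.73%) and the right 73 of 884 (8.26%). The log2 odds ratio was 0.44 ± 0.19 (Fisher's exact test, two-sided, p = 0.0242). This call ended in 3 of 7 alternatives, namely the conservative list (exact p = 0.0945), the list without replicate 2 (0.481) and the peaks above the median signal (0.0731). Neighbouring summits were a median of 40878 bp apart, and 14 of 255 gaps were under 1 kb.

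The sharpest difference from the autosomes was in promoter layout. Only 13 of 256 X summits (5.08%, interval 2.73 to 8.53) lay in the windows of genes on both strands, a divergent promoter pair, against 233 of 1102 autosomal promoter summits (21.1%, 18.8 to 23.7). The log2 odds ratio was −2.33 ± 0.42 (Fisher's exact test, two-sided, p = 1.83e-10 adjusted over 5 comparisons of peaks). Genes on X are also arranged this way less often: 371 of 2731 (13.6%) had a window that met that of a gene on the other strand, against 5285 of 17242 (30.7%) on the autosomes. Among summits in the window of such a gene alone, a test chosen after seeing the data, 13 of 38 on X (34.2%) lay in both windows, against 233 of 349 on the autosomes (66.8%; log2 odds ratio −1.95, exact p = 0.000136). Windows that met by any length counted here. The width of the overlap was not matched between X and the autosomes, and its part in this difference was not tested. Divergent pairs on X included trap-2 with ile-2, glit-1 with dnj-14, and gst-42 with D1053.2.

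The place of a summit within the window is given as a description, since the rule used this distance and most of the window is upstream. Of the 256 summits, 236 (92.2%) were upstream of the 5′ end. Within 300 bp of it lay 155 (60.5%), against 699 of 1102 on the autosomes (63.4%; log2 odds ratio −0.18 ± 0.21, exact adjusted p = 0.390). The median position was −228 bp, against −200 bp on the autosomes. The 2 fullest bins of 100 bp, from −100 to −1 and from −200 to −101, held 49 summits each. By annotation, 205 summits (80.1%) were intergenic, 20 lay in a UTR, 10 in a coding exon, 13 in another exon and 8 in an intron. Many worm transcripts are trans-spliced, and for those the annotated 5′ end is downstream of the transcription start.

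**Figure D2:**
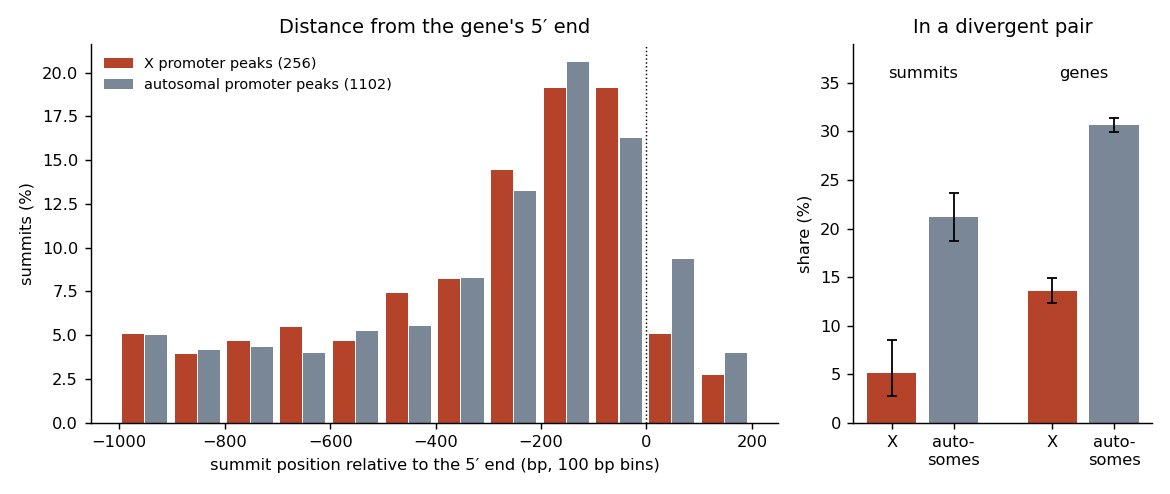
Left, share of X promoter summits (256) and autosomal promoter summits (1102) in bins of 100 bp from the gene's 5′ end, negative values upstream; both sets gather within 300 bp upstream. Right, share of summits in a divergent pair and share of genes with a divergent neighbour window, X left of the autosomes, with exact binomial 95% intervals; X was lower in both (5.08% against 21.1%, and 13.6% against 30.7%).

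Marked X genes had shorter upstream gaps than the other X genes. A summit in the windows of 2 genes marked both, and divergent genes that share a summit lie close together. The part of such genes in the difference was not tested. The intergenic stretch before the 5′ end exceeded the X median of 2123 bp at 110 of 258 marked genes (42.6%), against 1255 of 2473 unmarked genes (50.7%). Median lengths were 1760.5 bp at marked genes and 2185 bp at unmarked ones, and the log2 odds ratio was −0.47 ± 0.19 (Fisher's exact test, two-sided, p = 0.0307 adjusted over 2 comparisons). The call ended in 5 of 7 alternatives, in both lists of a single replicate, in the conservative list, with a window of 2 kb and among the peaks above the median signal (exact adjusted p 0.103 to 0.324). Gene length did not pass the threshold: 143 of 258 marked genes (55.4%) exceeded the X median, against 1222 of 2473 (49.4%; exact adjusted p = 0.0673).

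Signal, the peak signal value in the authors' deposited lists, is used here to rank and describe peaks. Across the 256 peaks it ran from 2.84 to 666, with a median of 130 and quartiles of 100.9 and 187. Autosomal promoter peaks had a median of 125, and X peaks outside promoters 120. Above the median of all promoter peaks, 126, stood 136 of 256 X promoter peaks (53.1%) and 543 of 1102 autosomal ones (49.3%; log2 odds ratio 0.22 ± 0.20, exact adjusted p = 0.373). Peak width carries little information, since 226 of 256 peaks (88.3%) had the same width, 324 bp.

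Presence in both replicates' own lists was most frequent where signal was high. Of the 256, 108 (42.2%, interval 36.1 to 48.5) were in both replicates' own thresholded lists, where 35.3% of all peaks were. Another 31 were in replicate 1's list only, 41 in replicate 2's only and 76 in neither. Among autosomal promoter peaks 415 of 1102 (37.7%) were in both (exact adjusted p = 0.332), and among X peaks outside promoters 162 of 467 (34.7%; log2 odds ratio 0.46 ± 0.23, exact adjusted p = 0.134). Split into 4 equal groups by signal, from the top, 61, 44, 2 and 1 of 64 X promoter peaks were in both lists; the own lists and the joint signal come from the same samples, so this order is partly built in.

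At the 250 peaks with a ranked peak in both replicates, signals had a Spearman correlation of 0.71 and a Pearson correlation of 0.76 on the log2 scale. This describes peaks that had already passed a limit on reproducibility, and peaks are not replicates. Replicate 1 had a median of 65.1 and replicate 2 a median of 71.5, and replicate 2 was higher at 159 of 250. Among the 25 strongest peaks, all of which were in both own lists, replicate 2 was higher at 24. By ratio, the farthest apart of the genes named here with both values was hizr-1, which encodes a nuclear receptor that responds to zinc, with 67.5 in replicate 1 and 20.5 in replicate 2. At 10 of the 256 peaks, both replicate values came from replicate peaks that another listed X peak also overlapped.

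**Figure D3:**
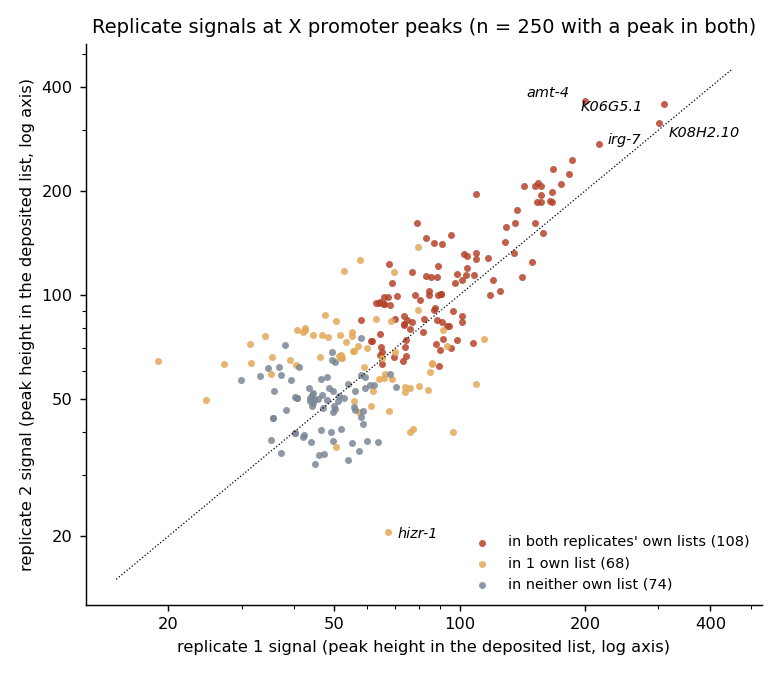
Replicate 2 signal against replicate 1 signal at the 250 X promoter peaks with a peak in both ranked lists, on log axes, coloured by the replicates' own thresholded lists; the dotted line marks equal values. Peaks in both own lists fill the upper right, where amt-4 stands farthest above the line among the strongest, and hizr-1 stands well below it. The axis labels call this signal peak height.

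The strongest X promoter peaks belonged to genes of varied kinds. The highest, at K06G5.1, had a joint signal of 666, with 309 in replicate 1 and 358 in replicate 2. K08H2.10, which RefSeq describes as a CUB domain protein, had 626 (302 and 315). amt-4, which encodes an ammonium transporter, had 583 from a summit 172 bp away, and replicate 2 (366) stood well above replicate 1 (200). These 3 were the only X promoter peaks over 500.

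Several of the next encode regulators of transcription or RNA. The ETS factor gene ets-4 had a summit 152 bp upstream at 393 (168 in replicate 1, 231 in replicate 2), and ceh-37, an Otx-family homeobox gene, one 98 bp upstream at 382 (154 and 210). puf-9, which encodes a Pumilio-family RNA-binding protein, had 295 (109 and 196), with the summit in the exon of a noncoding RNA. The helix-loop-helix gene hlh-13 had 294 (129 and 157), 617 bp upstream. All 4 were in both own lists, and replicate 2 was the higher in each.

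Others encode enzymes, signals and secreted or membrane proteins. irg-7, an infection response gene, had 486 at 200 bp upstream (216 in replicate 1, 273 in replicate 2) and 360 at 919 bp (142 and 207). The cytidine deaminase gene cdd-1 had 361, the transthyretin-like gene ttr-37 357 and the receptor guanylate cyclase gene gcy-11 356. bbln-1, which encodes the coiled-coil protein bublin, had 362 from a summit 918 bp upstream. The endoplasmic reticulum chaperone gene hsp-3, a BiP homologue, had 308 (136 and 162) only 41 bp upstream. The rest of the 25 strongest were nspc-17 (453), abhd-3.2 (414), F18G5.6 (392), oac-14 (365), B0272.4 (352), C52B11.5 (352), C44E12.1 (349), ins-39 (326), C33G3.4 (321), F18H3.4 (315) and T25B2.2 (278). Of these 25 summits, 15 lay within 300 bp of the 5′ end, 14 held a GATA match and 10 a wide posterior Hox match. Over all 256 peaks the shares were 60.5%, 47.7% and 27.7%.

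The gene lists were read against the 9.45% of all X genes. Of 28 homeobox genes on X, 3 were marked (10.7%): ceh-37, ceh-60 and pha-2. ceh-60, a PBC-class gene, had 133 (70.4 in replicate 1, 54 in replicate 2) and was in neither own list. pha-2, a homeobox gene of the pharynx, had 112, with 62.9 in replicate 1 and no ranked peak in replicate 2. All 3 windows held a GATA match. On the list drawn up for the X signal and dosage compensation, 2 of 7 genes were marked, and neither was in both own lists. sdc-2, whose protein brings the dosage compensation complex to X, had 121, with no ranked peak in replicate 1 and 84.2 in replicate 2. The sdc-2 peak overlapped no peak of the conservative list. dpy-22, which encodes a Mediator subunit, had 88.1 (35.9 and 52.6).

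Genes of developmental timing and of signalling were also among the marked. Of 6 heterochronic genes on X, 2 were: ain-1, a GW182-like partner of Argonaute, with summits of 186 and 122 at 891 and 4 bp upstream, and the Argonaute gene alg-1 at 103 (49.8 in replicate 1, 45.9 in replicate 2). A summit at C05G5.7 (156, in both own lists) fell inside the annotated let-7 microRNA gene. Of 3 Wnt pathway genes, only the beta-catenin gene bar-1 was marked, at 174 (87.3 and 91.9), with both a GATA and a wide Hox match. Of 11 genes of TGF-beta, Ras and Notch signalling, 1 was, the adaptor gene sem-5 at 192 (102 and 83.7). Of the 27 nuclear receptor genes on the list, 1 was, nhr-35 at 203 (90.4 and 100.8); the list does not hold hizr-1, which was also marked.

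Of 9 intestinal genes on X, 3 were marked. elt-2 had a summit 452 bp upstream at 236, with 104.4 in replicate 1 and 130 in replicate 2. The peptide transporter gene pept-1 had 165 (69.9 and 85.1), and the yolk protein gene vit-2 had 121 (51.8 and 67.0). Only the vit-2 window of these held a GATA match. Both ribosomal protein genes on X were marked, rpl-11.2 at 165 (91.4 and 74.5) and rpl-25.1, from a summit 171 bp downstream in an intron, at 96.1 (49.2 and 40.2).

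On the lists of collagen genes (0 of 29), muscle genes (0 of 7) and synaptic and pan-neuronal genes (0 of 5), no gene on X was marked. Of the 42 ion channel genes on the list, 1 was, the potassium channel gene twk-26 at 67.0 (45.9 in replicate 1, 34.4 in replicate 2). That list is not complete: the channel genes ocr-3 (151), del-5 (130), mec-10 (121) and kqt-2 (92.7) were marked too, a choice of names made with their values known. Of 34 neuropeptide genes, 2 were, ins-39 at 326 (159 and 151) and nlp-67 at 88.7 (49.6 and 52.7). No list was tested, and several are too short for their share to be read.

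Reading through the member names brought out further groups, chosen after values were seen, so their counts describe and support nothing. Of 10 genes of lysosomes and gut granules looked up, 9 were marked. lmp-2, a LAMP-like lysosomal membrane gene, had 229 (104.5 in replicate 1, 119 in replicate 2), lro-1 had 229 (125 and 103), the proton pump subunit gene vha-12 had 164 (81.7 and 78.2) and the zinc transporter gene cdf-2 had 151 (95.6 and 70.2). glo-3, of the same group, had a joint signal of only 8.80, rank 255 of the 256. Its replicate values, the highest of any overlapping ranked peak, were 62.2 in replicate 1 and 54.8 in replicate 2. All 3 scavenger receptor genes of the CD36 family on X were marked, scav-5 at 160, scav-4 at 125 and scav-1 at 111. So were 3 genes of tyrosine breakdown, the aminotransferase gene tatn-1 at 223 (79.4 and 137), the isomerase gene gst-42 at 175 (96.5 and 89.9) and the hydrolase gene fah-1 at 159 (68.4 and 83.8). Genes of protein folding and export were also present, with the disulfide isomerase gene pdi-6 at 187, the translocon-associated gene trap-2 at 217 and the glucosyltransferase gene uggt-1 at 113. Of 11 saposin-like genes, spp-5 (248), spp-14 (239) and spp-3 (237) were marked, all in both own lists. Of 7 intermediate filament genes, ifp-1 (183), ifd-2 (164) and ifd-1 (147) were.

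GATA matches were the commonest feature at the summits. Among the 253 X promoter peaks whose flank met no other summit, 47.4% had TGATAA or AGATAA within 50 bp of the summit, against 17.4% of windows centred 400 bp away. Between peaks with a match at the summit only and peaks with one in the flank only the log2 ratio was 2.01 (McNemar's exact test, two-sided, p = 7.54e-11 adjusted over 15 motifs). Of all X promoters, read in windows of the same length centred 200 bp upstream, 17.8% held a match. The 122 windows with a match had their nearest one a median of 20 bp from the summit, 73 of them (59.8%) within 25 bp, and 36 held more than 1. The bare core GATA, which every full match contains, was in 70.8% at the summit and 51.4% in the flank (exact adjusted p = 0.000383). The call on the full form was kept in 10 of 10 alternatives.

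The posterior Hox motif was not called at these summits. Its strict form, TTTATGA or TTTATGG, was in 10.7% of windows at the summit and 5.93% in the flank (22 peaks against 10, log2 ratio 1.14, exact p = 0.0501, adjusted p = 0.125). All X promoters held it in 5.16%. With windows of 100 bp to each side it passed (log2 ratio 1.17, exact adjusted p = 0.0292). The wide form, which includes the strict one, was in 27.3% and 19.8% (exact adjusted p = 0.138). The homeodomain core TAATTA was in 3.95% and 4.74%, and the Hox-PBC form TGATNNAT in 11.1% and 9.49%, with exact adjusted p of 0.951 and 0.847.

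3 other motifs were called. GAGAGA was in 13.0% at the summit and 4.74% in the flank (log2 ratio 1.54, exact adjusted p = 0.00957), but not called in either replicate's own list or in windows of 25 bp to each side. The GC box GGGCGG was in 3.95% and 0.395% (10 peaks against 1, exact adjusted p = 0.0352), a call that ended in 8 of 10 alternatives, both single-replicate lists among them. A run of 8 T was lower at the summit, in 3.56% against 11.1% (log2 ratio −1.64, exact adjusted p = 0.00961). That call ended with a promoter window of 500 bp (exact adjusted p = 0.0575) and in motif windows of 25 bp to each side (0.154), and without replicate 2 the log2 ratio was −3.91. Base composition moved with these: the median GC content was 40.6% at the summit and 32.7% in the flank, and its part in the motif shares was not tested. The E-box (CACGTG), the TATA form (TATAAA), the AP-1 site (TGACTCA), the B box of tRNA genes (GTTCNANNC), the heat shock form (GAANNTTC) and GCGCAGGG were not called either (exact adjusted p 0.417 to 1).

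**Figure D4:**
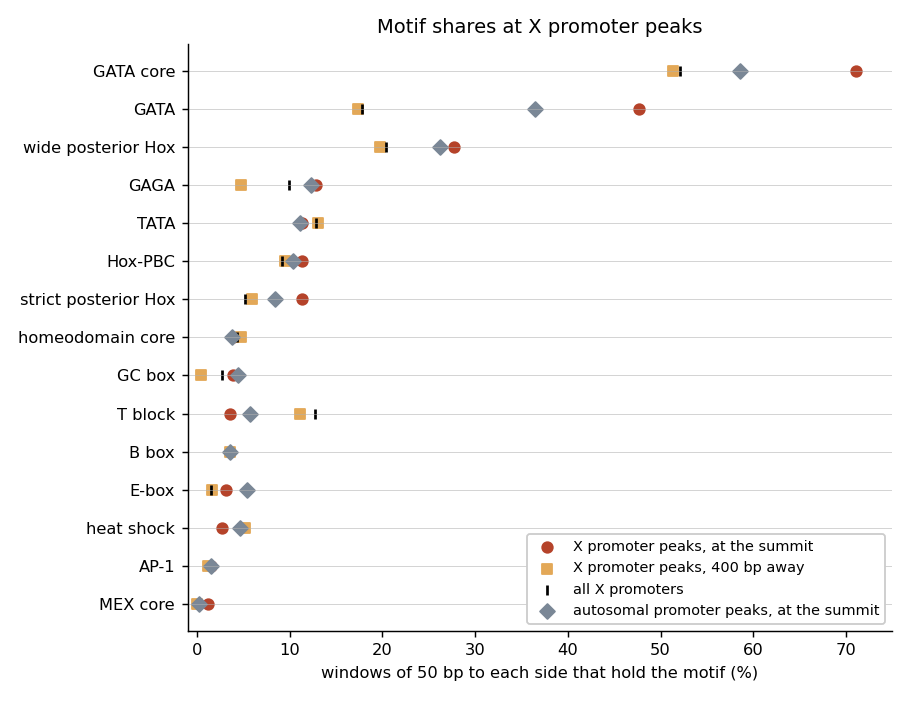
Share of windows of 50 bp to each side that hold each of the 15 motifs at X promoter summits (circles), 400 bp from them (squares), in all X promoters (ticks) and at autosomal promoter summits (diamonds). Circles are over all 256 peaks and squares over the 253 whose flank met no other summit. The full GATA form stood at 47.7% at X summits and 36.5% at autosomal summits, and the wide posterior Hox form at 27.7% and 26.2%.

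GATA matches were also more common at X than at autosomal promoter summits in the full set of peaks. The full form was in 122 of 256 X windows (47.7%, interval 41.4 to 53.97), against 402 of 1102 autosomal windows (36.5%, 33.6 to 39.4; log2 odds ratio 0.66 ± 0.20, Fisher's exact test, two-sided, p = 0.00782 adjusted over 15 motifs). The core was in 71.1% and 58.5% (0.80 ± 0.22, exact adjusted p = 0.00314). The call on the full form ended in 5 of 9 alternatives, among them the conservative list (exact adjusted p = 0.0704) and the lists without replicate 1 (0.743) and without replicate 2 (0.973), whose log2 odds ratios were 0.54, 0.27 and 0.28. The call on the core also ended in 5 of 9, such as without replicate 1 (log2 odds ratio 0.64, exact adjusted p = 0.340) and without replicate 2 (0.24, 0.973). With divergent summits left out, a test chosen after seeing the data, the shares were 48.6% and 39.4% (log2 odds ratio 0.54 ± 0.21, exact p = 0.0121, adjusted p = 0.0729 over 6 such tests). Windows 400 bp away, over all 256 and 1102 peaks, held it in 18.4% on X and 15.5% on the autosomes (exact adjusted p = 0.517), and X peaks outside promoters held it at the summit in 42.6% (exact adjusted p = 0.517). Neither form of the posterior Hox motif was called between X and the autosomes (strict 11.3% and 8.44%, wide 27.7% and 26.2%; exact adjusted p 0.455 and 1).

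**Figure D5:**
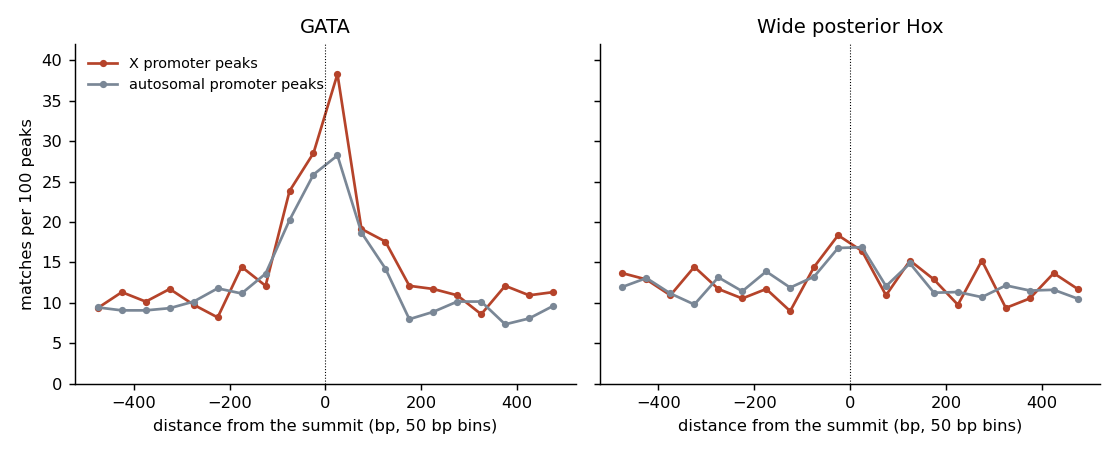
Matches per 100 peaks in bins of 50 bp around the summit for the full GATA form (left) and the wide posterior Hox form (right), at X and at autosomal promoter peaks, read along the plus strand of the assembly. GATA matches reached 38.3 per 100 X peaks and 28.2 per 100 autosomal peaks in the bin that starts at the summit, and the Hox form reached 18.4 per 100 X peaks in the bin before it.

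Having a GATA match went with no difference in strength that passed a test. The 122 X promoter peaks with a match had a median signal of 129, and the 134 without one 133. In replicate 1 the medians were 66.4 and 64.6, and in replicate 2 they were 72.2 and 71.1. Both own lists held 52 of 122 with a match (42.6%) and 56 of 134 without (41.8%; log2 odds ratio 0.05 ± 0.37, exact adjusted p = 0.900). In the same 4 groups by signal, from the top, 31, 28, 35 and 28 of 64 had a match. A GATA and a wide Hox match stood together in 41 windows (16.0%), GATA alone in 81, the Hox form alone in 30, and neither in 40.6% of windows, with median signals of 145, 123, 144 and 131.

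3 windows held GCGCAGGG, the core of the motif found at sites that recruit the dosage compensation complex to X. They belonged to nspc-17 (453, with 186 in replicate 1 and 246 in replicate 2), ins-39 (326, with 159 and 151) and R04E5.9 (166, with 110 and 55.1). The window of the last overlaps a UTR, and the other 2 are shown here with the match in capitals.
nspc-17 (chrX:14525856-14525956, minus strand): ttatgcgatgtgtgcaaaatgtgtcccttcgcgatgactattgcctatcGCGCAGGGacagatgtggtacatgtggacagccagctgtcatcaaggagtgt
ins-39 (chrX:1345008-1345108, minus strand): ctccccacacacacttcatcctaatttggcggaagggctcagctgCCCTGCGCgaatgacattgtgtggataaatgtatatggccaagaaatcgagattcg

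In nspc-17 the match lay at the centre of the window, at positions 50 to 57, and in ins-39 at 46 to 53, where the summit is position 51. The motif was in 1.17% of X promoter windows (3 of 256), against 0.181% of autosomal ones (2 of 1102; exact p = 0.0492, adjusted p = 0.246 over 15 motifs), and in 0.0366% of all X promoters. Among X peaks outside promoters 8 of 467 held it (1.71%), with signals of 69.7 to 504. The lowest of these had the same replicate values, 162 in replicate 1 and 138 in replicate 2, as another of the 8, at 322. The X promoter share passed after adjustment neither against the autosomal windows nor against X peaks outside promoters (Fisher's exact test, adjusted p = 0.900 for the latter). Its difference from all X promoters was not tested.

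At 14 of the 258 marked genes (5.43%) there was more than 1 summit. Besides irg-7 and ain-1, the highest were ztf-13, a zinc-finger gene, with 237 and 76.9 at 231 and 801 bp upstream, and glit-1, a neuroligin-like gene, with 234 and 105 at 219 and 820 bp. R04E5.9 and the metal transporter gene cnnm-2 shared 2 summits, at 166 and 154. Signal was under 50 at 6 peaks, and 5 of them stood at a gene with another summit. F22H10.3 had a joint signal of 13.6 although its replicate peaks had 65.8 and 94.3. Peaks that overlap share such replicate values.

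The edges of the window were not empty. The farthest summits upstream were those of Y102A11A.2, 996 bp away with a signal of 149, and H35N09.1, 987 bp away with 97.6. Just outside were T24D5.4 at 1006 bp (99.0) and fbxb-58 at 1008 bp (449), which is near the top of the range of the 256. Downstream, the last was T01C8.3 at 178 bp (90.7). The closest to a tRNA gene was that of C29F7.2, 756 bp away (102), and the farthest left out was that of nas-10 at 170 bp (4.88). Apart from tRNA genes, 33 summits (12.9%) had a noncoding RNA gene of the class ncRNA within 300 bp, so some may belong to it, and no summit had a snoRNA or snRNA gene there.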

How the data were processed

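PHP-3::EGFP ChIP-seq peaks were measured in 2 biological replicates, per the labels. Peak lists on ce11 were deposited, per the file listing. How reads were aligned and with which program peaks were called is not stated in the labels or headers. The larger list made from both replicates holds peaks with an IDR score of at least 830, per the deposited values. This score is a scaled measure of agreement between paired lists, higher where they agree better. Signal is the peak signal value of the deposited lists, whose normalization is not stated. The deposited −log10 q-value served only as another ranking. Replicate signals are the highest of any ranked peak of that replicate that overlaps by 1 bp.

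From these, summits were assigned to Ensembl release 115 genes and to RefSeq WBcel235 sequence. Shares were compared by Fisher's exact test, the summit and flank windows of the same peaks by McNemar's exact test, both two-sided and adjusted by Benjamini-Hochberg, with a threshold of 0.05; standard errors of log2 odds ratios are from the cell counts. The scripts were tested on simulated data. Flanks were centred 400 bp to the left of the summit on the assembly's plus strand, and left out where they met another summit. Tables and tests were made with pandas 2.3.3, scipy 1.17.1 and numpy 2.4.6 in Python 3.11.15, and figures with matplotlib 3.10.9.

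The peaks, lists, motifs and tests were chosen with earlier results of these data known. Genes named are the 25 strongest in both own lists, up to 6 a gene list, those at the edges of the rule and up to 6 with more than 1 summit; others were named after their values were seen. Alternatives were the conservative list, each replicate's own list, windows of 500 bp and 2 kb, peaks above the median signal, 1 kb from tRNA genes, motif windows of 25 and 100 bp to each side and the other flank, 50% overlap, other rankings and, added after seeing the data, no peaks of signal under 50 and tests named as such. Signal tracks and a possible control experiment were not used here.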

Additional observations from a re-analysis of the deposited data

How the results depend on the processing

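Of 155 recomputed values with a test, 121 kept their direction and side of the threshold, 31 lost and 2 gained a call, and 1 changed sign: the share above the median signal had a log2 odds ratio of 0.22 in the full set, −0.12 without replicate 1 and 0.18 without replicate 2, and was never called. Of 33 values with no test, 14 moved, a count by over 1.5 times or a correlation beyond its 95% interval. The higher share of marked genes on X and the lower share of divergent summits were called in every alternative run (log2 odds ratios 0.32 to 0.51 and −2.54 to −1.20); the shares in both own lists, above the median signal and within 300 bp were called in none. The number of X promoter peaks was 147 and 155 without replicate 2 and without replicate 1, 154 among peaks above the median signal, 248 in the conservative list and 338 with a window of 2 kb. The central excess along X had log2 odds ratios of 0.33 in the conservative list and 0.43 among peaks above the median signal, both below the threshold, and 0.18 to 0.50 without a replicate. The upstream-length difference was −0.34 in the conservative list, −0.23 with a window of 2 kb, −0.31 among peaks above the median signal, and −0.50 to −0.27 without a replicate, none past the threshold. Gene length passed with a window of 500 bp (0.53, exact adjusted p = 0.0134). The number of motifs called above the flank was 4 in the full set and 2 without either replicate and in windows of 25 bp to each side. The number called above autosomal promoter peaks was 2 in the full set, 1 in the conservative list and in windows of 100 bp to each side, and 0 without either replicate, among peaks above the median signal and in windows of 25 bp to each side. The Spearman correlation between replicates was 0.63 among peaks above the median signal and 0.25 by −log10 q. The lists of single replicates hold fewer peaks, by construction; the cause of the lost calls was not tested. No paired analysis was possible because both samples belong to the same group. Read depth is unknown, so what it limits could not be assessed.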
